A study of Homo sapiens with 3 samples.

Results

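PICSAR, LITATS1 (also called LINC01137) and CYTOR are long non-coding RNAs (lncRNAs) known from studies of carcinoma, and their transcripts were described here in RNA retrieved with focal adhesion kinase (FAK). The transcripts were chosen by name and position. They were 4 of the 334 lncRNA transcripts that the authors listed, with 1 transcript at PICSAR, 1 at LITATS1 and 2 overlapping transcripts at CYTOR. RNA immunoprecipitation followed by sequencing was performed in MDA-MB-231, an established cell line of human triple negative breast cancer whose genotype the labels give as p53-mutant, after transfection with plasmids for Flag-tagged FAK. All 3 libraries came from cells that expressed the tagged protein. The Flag-FAK library held RNA retrieved with an anti-FLAG antibody on Protein A/G Dynabeads, the IgG library held RNA retrieved in the same way with normal mouse IgG, and the Input library held 10% input RNA. The tag was on an overexpressed protein, and endogenous FAK was not precipitated by its own antibody. With 1 library per condition there was no replicate, no test and no SD, and every comparison is one of these libraries and not of the conditions.

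PICSAR is known as a lincRNA of cutaneous squamous cell carcinoma, in which it promotes ERK signalling and affects integrin-dependent adhesion and migration. LITATS1 is an lncRNA induced by TGF-β that restrains TGF-β signalling by favouring the degradation of the type I receptor, and it is transcribed divergently from ZC3H12A, the gene of the ribonuclease Regnase-1. CYTOR, the cytoskeleton regulator RNA also called LINC00152, is raised in many carcinomas and promotes proliferation and migration. It has a near-copy on the same chromosome, MIR4435-2HG, which is the host gene of a microRNA. FAK is the cytoplasmic tyrosine kinase that links integrins to the cytoskeleton in focal adhesions, and the study asked which lncRNAs are retrieved with it.

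The sequences that identify these RNAs are given first. The study measured PICSAR and LINC01137 by RT-qPCR with designed primers, listed beside those of FAISL, the lncRNA it went on to follow. It reports that top-ranked lncRNAs of this sequencing screen were retested by precipitation and RT-qPCR, in this cell line and another. Its text names FAISL as enriched in both lines and gives no such result for PICSAR or LINC01137. The retested lncRNAs are plotted in a figure of the study. Those measurements were not analysed here. The primers are printed 5′ to 3′ because they define what was amplified under these names. Each primer had 20 bases and a GC content of 55.0%, and none of them lay within the LITATS1 promoter window given below.
PICSAR sense: agggtcaagcagaactgtgg
PICSAR antisense: tgcattgcttaggtggggag
LINC01137 sense: tgaaagctcaccggtccttg
LINC01137 antisense: ttctgcggggacaacatctg

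The promoter windows of CYTOR and MIR4435-2HG are shown because they let a reader see how alike the copies are. Each window runs from 250 bases before to 50 after the gene's start in RefSeq (assembly GRCh38.p14). The CYTOR window lay at chr2:87455177-87455476 on the plus strand and the MIR4435-2HG window at chr2:111495112-111495411 on the minus strand. The capitals mark the stretch of 241 bases that both windows held with 0 mismatches. This stretch sat 59 bases further into the MIR4435-2HG window, so that the annotated starts of the copies are offset by that distance. It lay upstream of the listed transcripts of both loci and was thus no part of the sequence in which reads were counted.
CYTOR: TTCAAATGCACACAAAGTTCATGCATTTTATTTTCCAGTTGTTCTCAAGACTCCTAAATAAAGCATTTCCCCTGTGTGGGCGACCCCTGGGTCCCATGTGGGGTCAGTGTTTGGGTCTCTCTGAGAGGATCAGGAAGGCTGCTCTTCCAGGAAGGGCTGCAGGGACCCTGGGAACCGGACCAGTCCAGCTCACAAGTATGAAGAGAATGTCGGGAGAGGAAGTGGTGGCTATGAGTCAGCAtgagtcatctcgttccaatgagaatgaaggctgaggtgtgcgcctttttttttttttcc
MIR4435-2HG: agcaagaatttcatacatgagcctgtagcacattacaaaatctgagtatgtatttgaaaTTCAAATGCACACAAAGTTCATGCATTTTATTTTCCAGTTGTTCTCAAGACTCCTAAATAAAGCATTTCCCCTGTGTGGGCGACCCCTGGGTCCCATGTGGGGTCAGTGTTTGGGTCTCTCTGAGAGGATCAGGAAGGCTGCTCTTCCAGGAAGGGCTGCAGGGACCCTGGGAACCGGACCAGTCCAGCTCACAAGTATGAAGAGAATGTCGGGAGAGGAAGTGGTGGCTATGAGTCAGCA

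The LITATS1 window, at chr1:37474394-37474693 on the minus strand, is shown because the listed transcript began inside it and because it overlapped the promoter window of the divergent gene ZC3H12A by 236 bases on the opposite strand. The capitals mark the 130 bases that lay within the listed transcript.
LITATS1: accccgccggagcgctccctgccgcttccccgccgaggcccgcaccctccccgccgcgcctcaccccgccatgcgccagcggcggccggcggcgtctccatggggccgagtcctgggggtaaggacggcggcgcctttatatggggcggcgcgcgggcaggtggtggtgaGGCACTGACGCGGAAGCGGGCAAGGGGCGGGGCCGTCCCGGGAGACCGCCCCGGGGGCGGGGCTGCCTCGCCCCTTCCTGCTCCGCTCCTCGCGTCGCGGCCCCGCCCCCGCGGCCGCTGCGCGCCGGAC

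The promoter windows differed in base composition. The LITATS1 window had a GC content of 80.7%, against 49.7% for CYTOR and 47.7% for MIR4435-2HG. Over all 35116 promoter windows of the same length the median was 58.7% (quartiles 47.0% and 68.0%), so LITATS1 lay above the upper quartile and both copies lay within the quartiles. The GC box core GGGCGG was found 5 times in the LITATS1 window, 3 times on the strand of the gene and 2 times on the other, and 0 times in the CYTOR and MIR4435-2HG windows. It was present on either strand in 45.0% of all windows. The TATA box letters TATAAA were found once in the LITATS1 window, on the strand opposite to the gene, and 0 times in the other windows, and 11.5% of all windows held them on either strand. PICSAR was not among the promoters used here.

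The listed transcripts were placed on the RefSeq genes by position, on GRCh38, the build that the labels name. The PICSAR transcript, MSTRG.20835.1 in the assembly of the authors and NONHSAT082908.2 by its database name, spanned 7279 bases at chr21:44997313-45004591 on the minus strand. RefSeq PICSAR covered 74.0% of that span. The transcript started 136 bases inside the RefSeq gene and ran 1895 bases past its 3′ end. The LITATS1 transcript, MSTRG.937.1 or NONHSAT002437.2, spanned 19622 bases at chr1:37454902-37474523 on the minus strand, and RefSeq LITATS1 covered 99.6% of it. Its start lay 80 bases upstream of the RefSeq start of LITATS1 and 57 bases from the start of ZC3H12A.

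Both CYTOR transcripts, listed under NONHSAT072142.2, began at the same base on the plus strand, 65 bases inside RefSeq CYTOR. The long one, MSTRG.18317.2, spanned 128069 bases at chr2:87455492-87583560, and only 51.6% of that span lay on RefSeq CYTOR, since it ran 62042 bases past the 3′ end of the gene. The short one, MSTRG.18317.3, spanned 22739 bases at chr2:87455492-87478230 and lay wholly within it. Both also lay within NCAL1, an annotated lncRNA that starts near CYTOR and extends further, and CYTOR is used here as the name of the locus. The lncRNA genes LINC01943, LOC124906032 and LOC107985909 and the pseudogene PAFAH1B1P1 overlapped the locus as well. The spans include introns, and the exons were not analysed here.

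**Figure D1:**
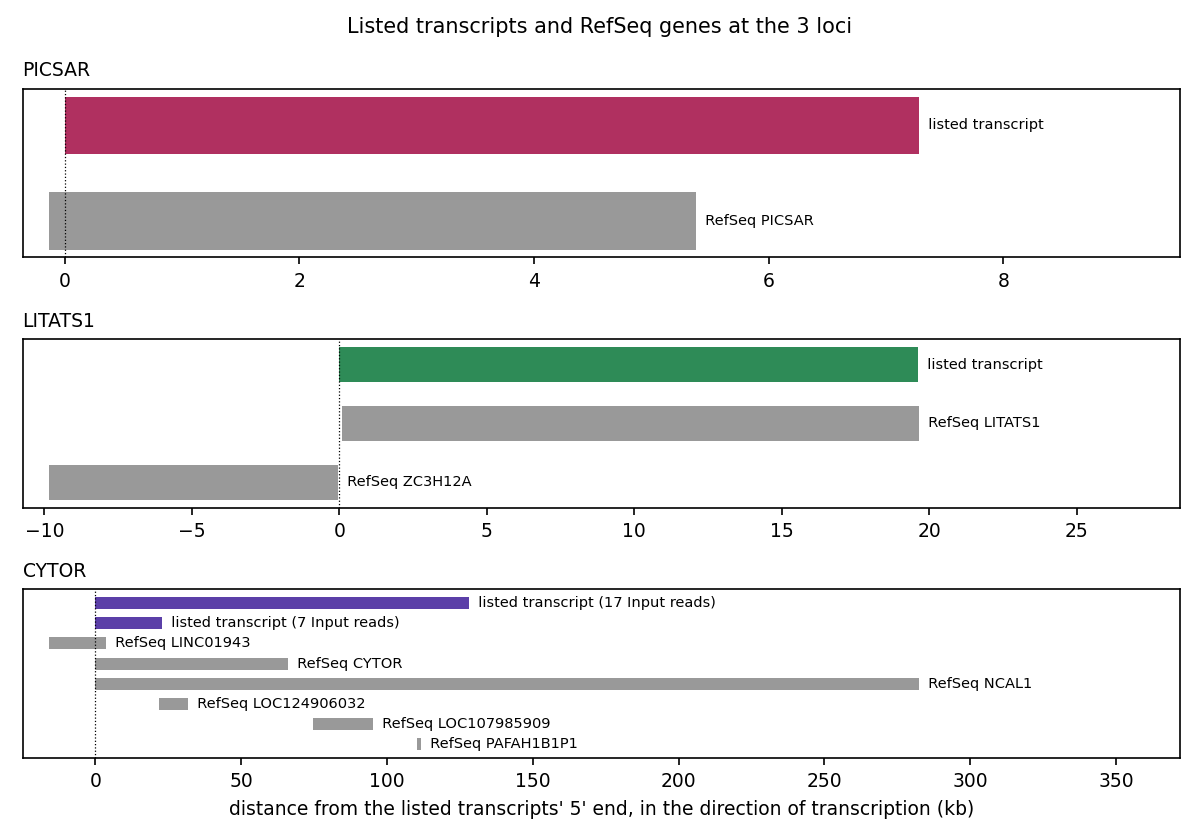
Position of the listed transcripts (coloured bars) and of the RefSeq genes that overlap or adjoin them (grey bars), in kb from the 5′ end of the listed transcripts and in the direction of transcription. PICSAR ran past the 3′ end of its RefSeq gene by 1895 bases and the long CYTOR transcript by 62042 bases, while LITATS1 matched its gene over 99.6% of the span and started 57 bases from ZC3H12A.

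The authors gave a read count and an FPKM value (reads per kilobase of a transcript's length, scaled to library size) for every transcript. The 334 transcripts together held 2056854 reads in the Input library, 109658 in the IgG library and 48763 in the Flag-FAK library. At least 1 read was found for 291, 150 and 67 of them, respectively. Ribosomal DNA transcripts and 7SK held between 96.7% and 99.3% of these reads, which left 13782, 3669 and 1351 reads in the same order for all other transcripts. These are sums over the listed lncRNAs and not the depth of the libraries, which is not given. The FPKM per read of the same transcript was close between libraries. Its median ratio was 0.974 for Flag-FAK over IgG (26 transcripts), 1.08 for IgG over Input (64) and 1.04 for Flag-FAK over Input (34). Since FPKM is scaled to library size, the library sizes used in that scaling were similar, whereas the sums over the listed lncRNAs were not. Since protein-coding genes were not analysed here, neither the FAK transcript nor markers of the cell line could be checked. The intervals below are exact and at the 95% level. They cover counting error only, and they treat as counted reads the whole numbers of the files, which may be rounded estimates.

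All 3 loci had reads in Input, and PICSAR was the most abundant of them. PICSAR had 275 reads in Input (exact Poisson interval 243 to 309) and a level of 11.6 FPKM (10.3 to 13.0), which was rank 22 of the 334 transcripts by FPKM and rank 8 by reads. LITATS1 had 61 Input reads (46.7 to 78.4) and a level of 4.28 FPKM (3.27 to 5.50), rank 83 by FPKM. The CYTOR transcripts together had 24 Input reads (15.4 to 35.7) and a summed level of 6.46 FPKM (4.14 to 9.61). Over the 291 transcripts with Input reads the median level was 2.98 FPKM, with an upper quartile of 4.55, so PICSAR and the CYTOR sum lay above the upper quartile and LITATS1 lay between the median and that quartile. The quartiles are of single transcripts, and the place of CYTOR came from summing. Singly, the long CYTOR transcript was at 3.88 FPKM (rank 97), below the upper quartile. The short one was at 2.58 FPKM (rank 177), below the median. By level, with CYTOR summed, the order was PICSAR, CYTOR and LITATS1, whereas each CYTOR transcript alone was below LITATS1. The counting intervals of CYTOR and LITATS1 overlapped, while that of PICSAR lay above both.

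The order by reads differed from the order by FPKM because a read counts for more FPKM on a shorter transcript. In Input, 1 read was worth 0.0422 FPKM on PICSAR and 0.0701 FPKM on LITATS1, which is 1.66 times as much. On the CYTOR transcripts it was worth 0.228 FPKM for the long one and 0.368 FPKM for the short one, 5.41 and 8.73 times as much as on PICSAR. A given level thus rested on fewer reads for CYTOR than for PICSAR.

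**Figure D2:**
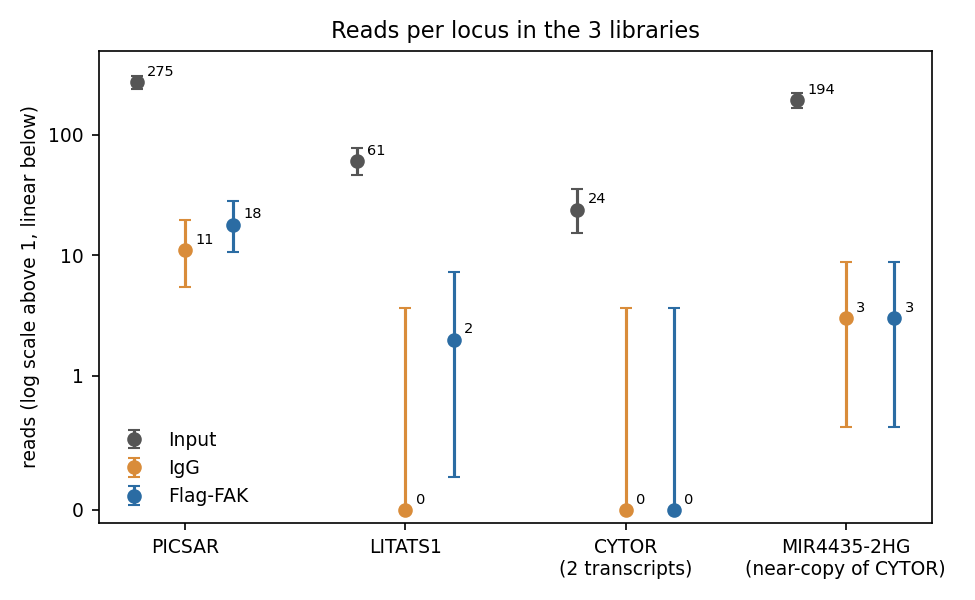
Reads at PICSAR, LITATS1, CYTOR (both transcripts summed) and the near-copy MIR4435-2HG in the Input, IgG and Flag-FAK libraries, 1 library each, on an axis that is logarithmic above 1 read. Bars are exact 95% Poisson intervals of the count, and PICSAR was the member with reads in all 3 libraries (275, 11 and 18), whereas the 24 CYTOR reads were all from Input.

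PICSAR was the only one of the 3 lncRNAs with reads in both precipitates. The IgG precipitate held 11 reads (5.49 to 19.7) and a level of 0.463 FPKM, and the Flag-FAK precipitate held 18 reads (10.7 to 28.4) and a level of 0.792 FPKM. PICSAR was thus lowest in IgG and highest in Input, and the intervals of the 2 precipitates overlapped. In the Flag-FAK library it was rank 17 of the 334 transcripts by reads.

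The level of PICSAR in Flag-FAK was 1.71 times that in IgG, with an exact Clopper-Pearson interval of 0.765 to 4.00, so a difference between these libraries was not detectable at this depth on the FPKM scale. The log2 ratio of FPKM with a pseudocount of 0.1 was 0.66. Among the 135 transcripts that reached 0.5 FPKM in at least 1 of the precipitates, 19 (14.1%) were more than 2-fold higher in Flag-FAK and 104 (77.0%) were below 0.5-fold. The median ratio over these transcripts was 0.0807, again with the pseudocount. PICSAR was the one member that reached that level, and it fell in neither class, with a ratio of 1.58 on that scale.

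The value for PICSAR depended on how the libraries were scaled. Rescaling the FPKM of each library to a common total over the 334 transcripts (TPM) multiplied every Flag-FAK over IgG ratio by 2.29, and leaving ribosomal DNA and 7SK out of that total multiplied it by 2.71. The ratio of PICSAR then became 3.91 (1.75 to 9.17) and 4.64 (2.07 to 10.9), and both intervals lay above 1. Relative to the summed level of the listed lncRNAs in the same library, PICSAR was thus higher in Flag-FAK than in IgG. Ribosomal DNA and 7SK held most of the reads behind the first of these totals. On the deposited FPKM scale the interval included 1. With TPM over all listed transcripts, 27 of the same 135 transcripts were more than 2-fold higher in Flag-FAK, in place of 19. PICSAR was then among them, with a log2 ratio of 1.96. For reference, FAISL (VPS9D1-AS1), the lncRNA that the study went on to follow, was counted with 160, 13 and 20 reads in Input, IgG and Flag-FAK, and its FPKM in Flag-FAK was 1.52 times that in IgG, with an interval of 0.719 to 3.32. On the TPM scales this ratio became 3.48 (1.65 to 7.61) and 4.12 (1.95 to 9.02). The scaling factors are the same for every transcript, so this shift is shared by all of them and is not a likeness of FAISL to PICSAR.

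LITATS1 was counted with 0 reads in the IgG library and 2 in the Flag-FAK library. Its interval in IgG reached 3.69 reads and that in Flag-FAK ran from 0.242 to 7.22 reads, so these intervals overlapped. The level in Flag-FAK was 0.147 FPKM, below the 0.210 FPKM that 3 reads would give, which is the number of reads that a count of 0 was taken to allow. No fold is given for this reason. The interval of the Flag-FAK to IgG ratio started at 0.183 in FPKM and had no upper end, so neither a higher nor a lower level was shown. Each of the 2 reads was worth 1.05 times the FPKM of an Input read of the same transcript. Of the 30 transcripts outside ribosomal DNA and 7SK with at least as many Input reads as LITATS1, 6 had 0 reads in IgG and 7 had more reads in Flag-FAK than in IgG. LITATS1 was the 1 transcript in both groups, on 2 reads against 0, and the limit on Input reads was its own count.

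Both CYTOR transcripts were at 0 reads in either precipitate. A count of 0 allows up to 3 reads, which at the locus would be 0.807 FPKM, so no comparison between the precipitates could be made. Had CYTOR been kept in the precipitates to the same degree as PICSAR, 0.960 reads would have been expected in IgG and 1.57 in Flag-FAK. The absence of CYTOR reads was therefore not distinguishable from retention at the level of PICSAR. For LITATS1 the same calculation gave 2.44 reads in IgG and 3.99 in Flag-FAK, against the 0 and 2 that were counted.

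Compared with Input, all members were lower in both precipitates on the FPKM scale. FPKM is scaled to library size, so percentages of Input, and the words kept and retention, refer here to shares of libraries. They are not the fraction of RNA recovered. PICSAR in IgG was at 4.00% of its Input FPKM (1.97% to 7.26%), which is 25.0-fold lower, and in Flag-FAK at 6.83%, or 0.0683 of it (0.0399 to 0.110), which is 14.6-fold lower. LITATS1 in IgG, taken at the 3 reads that a count of 0 allows, was at least 18.9-fold lower than in Input. That bound leaves out the counting error of the Input reads, and the exact interval, which includes it, ran from 0% to 6.71% of the Input level. In Flag-FAK it was at 3.44% of its Input level (0.403% to 12.8%). By the same bound CYTOR was at least 7.43-fold lower in IgG and at least 7.70-fold lower in Flag-FAK, while its exact intervals, wider than these bounds, reached 17.9% and 17.3% of the Input level. The 3 loci overlapped in these intervals in each precipitate, so no order of retention among them was shown.

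Most listed lncRNAs were likewise lower in the precipitates than in Input. From Input to IgG, 253 of 321 transcripts (78.8%) were below 0.5-fold and 43 (13.4%) were above 2-fold, and all 4 members were below 0.5-fold. From Input to Flag-FAK, 278 of 300 transcripts (92.7%) were below 0.5-fold, 16 (5.33%) were above 2-fold, and again all 4 members were below 0.5-fold. The median ratios over all transcripts, with the pseudocount, were 0.0488 for IgG and 0.0396 for Flag-FAK, against 0.0482 and 0.0763 for PICSAR.

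A closer background was given by the 91 transcripts outside ribosomal DNA and 7SK with at least 20 reads in Input, a limit chosen after the values were seen. In IgG, 29 of them (31.9%) had 0 reads, and the median kept 8.29% of its Input FPKM, with quartiles of 0% and 27.4%. PICSAR, at 4.00%, was exceeded by 52 of these transcripts and lay above 38. In Flag-FAK, 56 of them (61.5%) had 0 reads and the upper quartile was 7.36%. PICSAR, at 6.83%, was exceeded by 24 and lay above 66. PICSAR thus stood below the middle of these transcripts in IgG and close to the upper quartile in Flag-FAK. The limit was 20 Input reads, against 275 for PICSAR. For a transcript near that limit, as for CYTOR, 0 reads cannot be told apart from retention at the level of PICSAR. The place of PICSAR in Flag-FAK therefore does not show that it was kept more than those transcripts. PICSAR was also among the 15 transcripts with more reads in Flag-FAK than in IgG. Reads were absent from both precipitates for 24 of the 91 transcripts, and CYTOR, whose transcripts taken singly had fewer than 20 Input reads, had none in either.

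**Figure D3:**
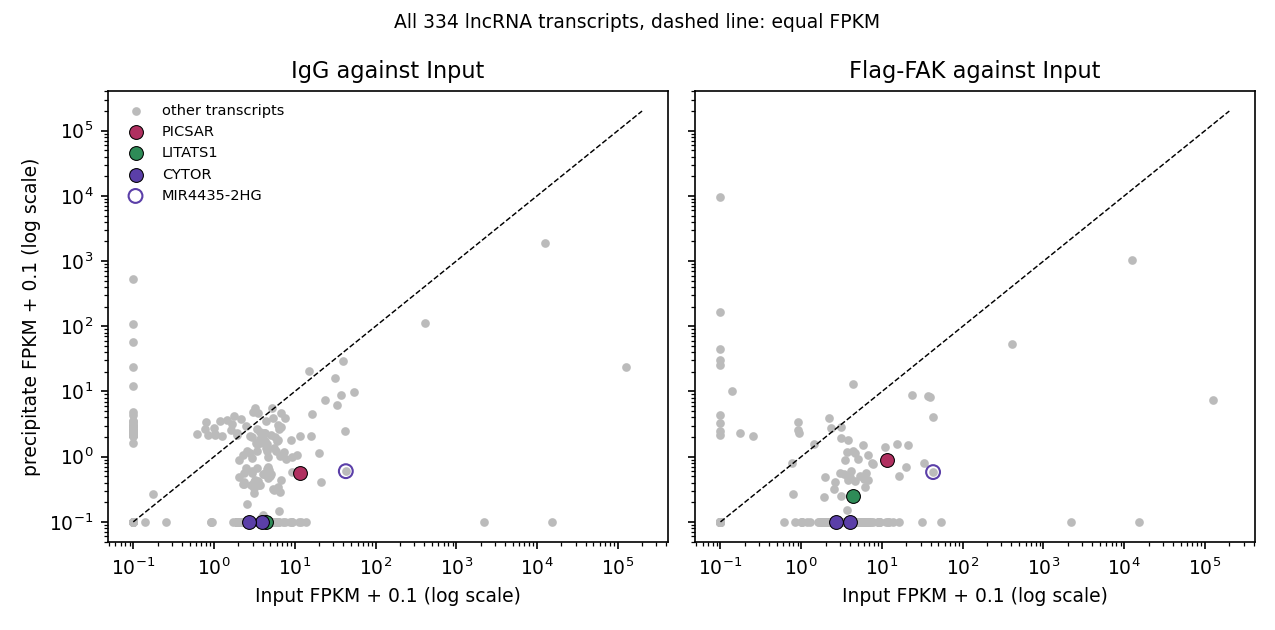
Level in the IgG (left) and Flag-FAK (right) precipitate against the level in Input for all 334 lncRNA transcripts, in FPKM plus 0.1 on logarithmic axes, with a dashed line at equal values. All 4 members lay below the line in both panels, as did 78.8% (IgG) and 92.7% (Flag-FAK) of the transcripts compared by more than 2-fold, and PICSAR was the member farthest above the floor.

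The difference from Input also moved with the scaling. TPM multiplied every IgG over Input ratio by 6.14 and every Flag-FAK over Input ratio by 14.1, and TPM without ribosomal DNA and 7SK by 3.37 and 9.14. In IgG, PICSAR stayed below its Input level, at 0.245 times (0.121 to 0.446) and 0.135 times (0.0664 to 0.245). In Flag-FAK, the ratio of PICSAR to Input became 0.960 (0.560 to 1.55) and 0.624 (0.364 to 1.01), and both intervals included 1. The lower level of PICSAR in Flag-FAK than in Input was thus seen on the FPKM scale and was not detectable on either TPM scale. The same held for LITATS1, with ratios of Flag-FAK to Input of 0.483 (0.0567 to 1.80) and 0.314 (0.0369 to 1.17). For LITATS1 in IgG, the upper ends of the intervals were 0.412 and 0.226, both below 1. For CYTOR they were 1.10 and 0.602 in IgG, and 2.43 and 1.58 in Flag-FAK, so that on the TPM scales CYTOR lay below its Input level only in IgG, and there only without ribosomal DNA and 7SK.

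**Figure D4:**
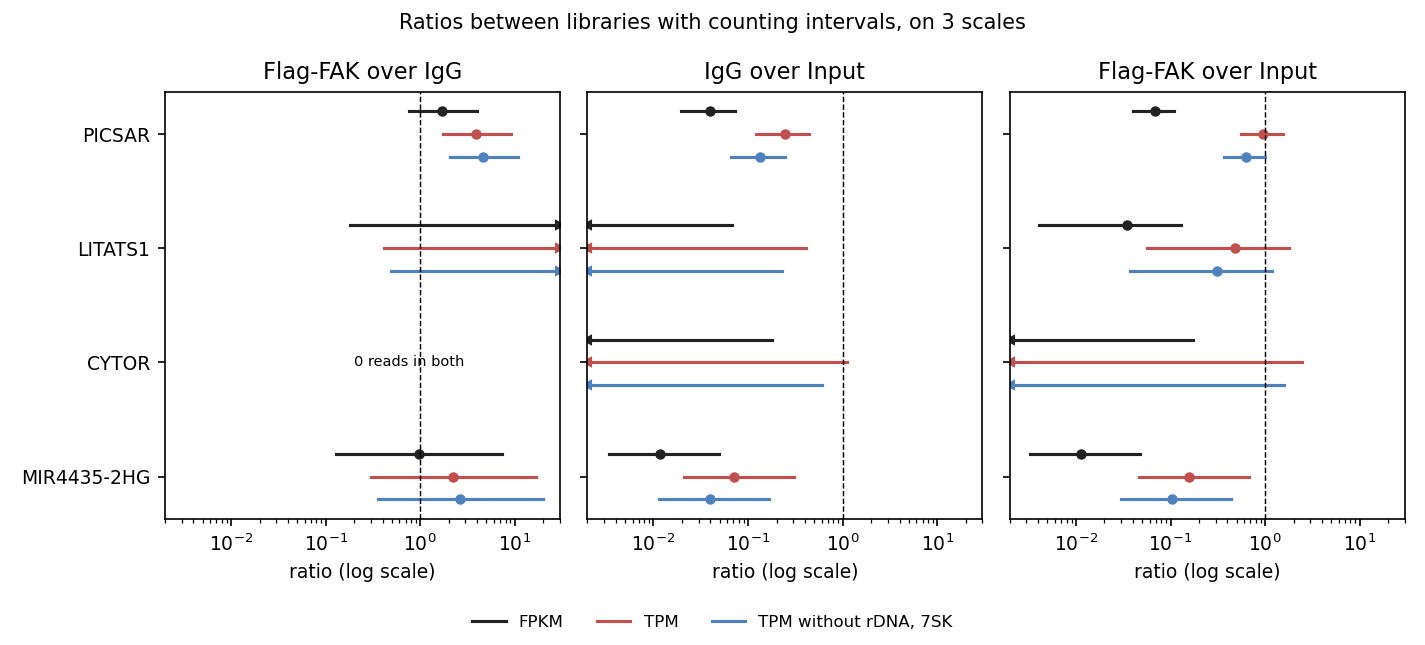
Ratios between the libraries for PICSAR, LITATS1, CYTOR and MIR4435-2HG on a logarithmic axis, as deposited FPKM (black), TPM (red) and TPM without ribosomal DNA and 7SK (blue). Points are ratios without pseudocount, bars are exact 95% counting intervals, arrows mark intervals without an end inside the panel, and the dashed line is at 1. PICSAR in Flag-FAK over IgG moved from 1.71 to 3.91 and 4.64.

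The reads of the CYTOR locus in Input were divided between its transcripts. The long transcript had 17 reads and a level of 3.88 FPKM, and the short transcript had 7 reads and a level of 2.58 FPKM. The long transcript thus held 70.8% of the reads of the locus (exact binomial interval 48.9% to 87.4%) and 60.1% of its FPKM. The interval included an even division. Since both transcripts overlap along the whole of the short one, the division rests on the assembly and quantification of the authors.

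The near-copy MIR4435-2HG, at chr2:111429310-111495045 on the minus strand, was more abundant than CYTOR. It had 194 reads and 42.8 FPKM in Input, 3 reads and 0.499 FPKM in IgG, and 3 reads and 0.481 FPKM in Flag-FAK. It thus kept 1.17% of its Input FPKM in IgG (0.340% to 4.94%) and 1.12% in Flag-FAK (0.329% to 4.77%). The ratio of Flag-FAK to IgG was 0.962 (0.130 to 7.27). At the degree to which PICSAR was kept, 7.76 and 12.7 reads would have been expected. The interval of MIR4435-2HG in Flag-FAK overlapped that of PICSAR, and so did the one in IgG.

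How reads that fit both copies were assigned is not given in the sources used here, so the levels of CYTOR and MIR4435-2HG are uncertain one by one. Summed, they had 218 reads and 49.3 FPKM in Input and 3 reads in each precipitate, and kept 1.01% of the Input FPKM in IgG (0.303% to 4.39%) and 0.975% in Flag-FAK (0.293% to 4.23%). At the ratio of MIR4435-2HG, 0.371 reads would have been expected for CYTOR in a precipitate, against the 0 that were counted.

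The lncRNAs whose pattern over the 3 libraries was most like that of each locus were found by the Euclidean distance of log2 FPKM (pseudocount 0.1), over 3 libraries. For PICSAR the nearest was NONHSAT144573.2, a transcript of FAISL at VPS9D1-AS1, with 106, 9 and 13 reads in Input, IgG and Flag-FAK and a distance of 1.11. It was followed by lnc-AGRP-1:4, with 155, 3 and 10 reads, and by NONHSAT120414.2 at the snoRNA host gene SNHG15, with 146, 8 and 5 reads. Of these transcripts, the first 2 had, like PICSAR, more reads in Flag-FAK than in IgG. For LITATS1 the nearest was NONHSAT004543.2 at BCAR3, with 49, 1 and 5 reads and a distance of 0.865. It was followed by NONHSAT129467.2 at PSCA, with 23, 1 and 3 reads, and by NONHSAT151179.1, with 5, 0 and 1 reads. All of these rested on 5 or fewer reads in Flag-FAK. For CYTOR the nearest were NONHSAT143108.2 at PLEKHG4 with 17 Input reads, NONHSAT070231.2 at MAP4K3-DT with 16, and lnc-CTD-2228K2.5.1-1:1 at SLC9A3-OT1 with 116. These had 0 reads in both precipitates, so their likeness to CYTOR rests on the Input level alone.

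The authors scored the coding potential of each transcript with CPC, CNCI and CPAT, tools that assign low values to sequences without protein-coding features. All 334 listed transcripts had CPC and CNCI scores below 0, with a CPC median of -1.02. The ranks below are therefore places within a list of low scores only. PICSAR scored -0.834 by CPC and -0.0807 by CNCI, and its CPAT coding probability was 0.0218. These values ranked 77, 235 and 180 from the highest of 334, so PICSAR lay above the median by CPC and below it by the other scores.

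LITATS1 had the highest coding scores of the members by CPC and CPAT and the lowest by CNCI. Its CPC score was -0.686 (rank 42), its CNCI score -0.129 (rank 302) and its CPAT coding probability 0.252 (rank 22). The CPAT median over all transcripts was 0.0270, the upper quartile 0.0778 and the highest value 0.360. The scores thus placed LITATS1 toward opposite ends of this list.

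The CYTOR transcripts differed little by CPC, at -0.935 for the long and -0.878 for the short one. By CNCI the long transcript scored -0.0528 (rank 177), near the median of -0.0492, and the short one scored -0.00410 (rank 50), above the upper quartile of -0.0123. Their CPAT probabilities were 0.0245 and 0.0477, against 0.0412 for MIR4435-2HG. The short transcript had the higher value by all 3 scores. The scores belong to the transcripts and were the same in all libraries.

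**Figure D5:**
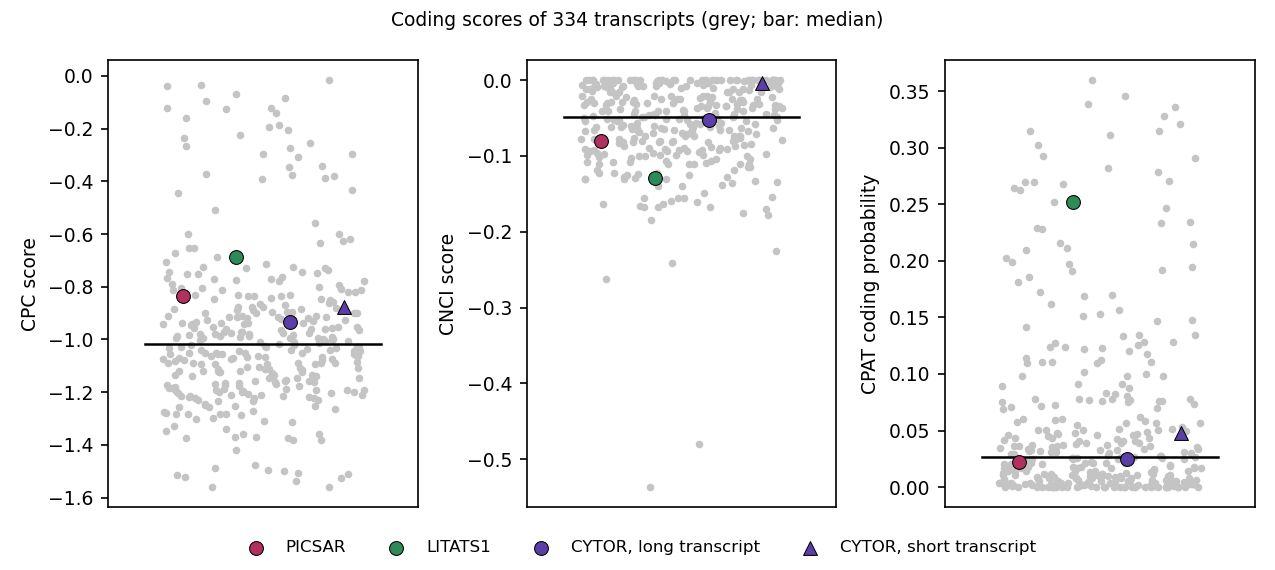
CPC score, CNCI score and CPAT coding probability of the 334 listed transcripts (grey points, spread sideways for display), with the median as a bar and the members coloured. LITATS1 had a CPAT probability of 0.252 against a median of 0.0270 while its CNCI score of -0.129 lay below most transcripts, and PICSAR and the CYTOR transcripts lay nearer the medians by CPAT.

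The authors also listed predicted target genes for each lncRNA, in cis by position or in trans. These are predictions and no expression of a target was analysed here. A listed transcript had a median of 10.0 targets, and 3948 genes were named in all. PICSAR had 5 targets, LITATS1 15 and CYTOR 18, and no target was shared between the 3 loci.

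PICSAR had 1 cis target, FAM207A (now SLX9, a ribosome biogenesis factor), which lay 20340 bases away. Its trans targets were ALKBH4, a dioxygenase of the AlkB family, ANAPC11, the RING subunit of the anaphase-promoting complex, KRTAP9-2, a keratin-associated protein of hair, and PRSS56, a serine protease. ALKBH4, ANAPC11 and KRTAP9-2 were listed for no other transcript.

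LITATS1 had 4 cis targets. ZC3H12A, the divergent partner, lay 57 bases away. MEAF6, a subunit of histone acetyltransferase complexes, lay 15470 bases away, and DNALI1, an axonemal dynein light chain, lay 82417 bases away. The other 11 were trans targets, and 8 of the 15 targets were each listed for at least 10 transcripts. Of all 3948 target genes 30 (0.760%) were, a share that counts each gene once. A gene listed for many transcripts is met more often in any single list, so these shares are not alike. The targets that come first in alphabetical order, AC004824.2, AC004953.1, AC131263.1, AL365202.1 and AL591806.1, were each listed for between 13 and 21 transcripts. The trans list of LITATS1 was thus made largely of genes that recur across the listed lncRNAs.

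All 18 targets of CYTOR were trans targets. The short transcript accounted for 18 of them and the long one for PLEC alone, which both shared. PLEC, the cytolinker plectin, was named after the values were seen, and it was listed for 8 transcripts in all. On the chromosome of CYTOR lay FAM178B, 9292325 bases away, and ANO7, a member of the anoctamin family, 153605117 bases away. The targets that come first in alphabetical order were ABL2, a tyrosine kinase that acts on the actin cytoskeleton, ANO7, ARHGEF15, a guanine nucleotide exchange factor, ATHL1 (now PGGHG) and C2CD2L. Of the 18 targets, 11 were listed for no other transcript.

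The targets were also set against genes of focal adhesions, the structures in which FAK acts. None of the 38 targets was among 44 focal adhesion genes named for this comparison, against 8 (0.203%) of the 3948 target genes of all transcripts. By the functional annotation that the authors attached to the targets, 1 of the 38 was assigned to the focal adhesion pathway, against 92 of 3948 (2.33%). This was AC004953.1, described there as myosin regulatory light chain 10 and listed for LITATS1. Counts this small are near those shares of all targets, and no difference was shown.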

How the data were processed

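RNA of MDA-MB-231 cells with Flag-tagged FAK was sequenced as 1 Input, 1 IgG and 1 Flag-FAK library. The deposited tables hold, per the labels and file headers, an FPKM value and a whole-number read count for each of 334 lncRNA transcripts, repeated over 7007 lines because a transcript is listed once per predicted target. Repeated lines were used once. The authors also deposited CPC and CNCI scores, a CPAT coding probability as a fraction, and target genes with their annotation. The submitters' processing notes name StringTie and GRCh38. The aligner, the counting settings and the handling of reads that map more than once are not given in the sources used here. Where a count was small, the FPKM per read could differ from that in Input (0.754 and 0.726 times for the 3 reads of MIR4435-2HG in IgG and Flag-FAK), so the counts may be rounded.

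With 1 library per condition no test was made. The main measure was log2 of (FPKM + 0.1) over (FPKM + 0.1). Ratios in the text are of FPKM without pseudocount unless stated, with Clopper-Pearson intervals (95%) on the reads of both libraries, put on the FPKM scale by the FPKM per read of the libraries. This conversion came from the transcript itself if it had 5 or more reads in each library, and from the median of such transcripts if not (0.974 for Flag-FAK over IgG). A count of 0 was taken to allow 3 reads. Transcripts were included in the counts over all transcripts if either library compared reached 0.5 FPKM. In simulated Flag-FAK and IgG libraries of 334 transcripts with an 8-fold change in 60, the true fold lay in 96.4% of the intervals. Expected counts in the simulation were at least 5 reads, and no conversion to FPKM was applied. It therefore does not cover counts as low as those of LITATS1 and CYTOR in the precipitates.

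The members and lists were chosen with earlier results of these data known. Genes named are the members, the 3 database-named transcripts nearest in pattern to each locus, and FAISL. Of the predicted targets, all are named where a locus has 10 or fewer. Otherwise those in the focal adhesion list, up to 5 nearest on the same chromosome and the first 5 in alphabetical order are named. A cis target of LITATS1 is not reported here. Alternatives were pseudocounts of 0.01 and 1, other minimum values, TPM (a total of 1000000), TPM without ribosomal DNA and 7SK, read counts plus 1, and single CYTOR transcripts. RefSeq symbols and promoters are those of GRCh38.p14, and 8 of the 15 LITATS1 targets matched a RefSeq symbol, against all 5 of PICSAR and all 18 of CYTOR. The tools were scipy 1.17.1, pandas 2.3.3 and numpy 2.4.6 under Python 3.11.15, with figures by matplotlib 3.10.9.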

Additional observations from a re-analysis of the deposited data

How the results depend on the processing

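No result changed direction under the alternatives run for it. Of the values under alternatives, 51 moved by less than their counting interval (or, for counts of transcripts, less than 1.5 times) and 14 by more. With 0 reads in a precipitate that interval has no lower end on the log2 scale, so any lower value is among the 51. With TPM without ribosomal DNA and 7SK, LITATS1 in IgG over Input thus went from -5.45 to -13.40. Under the same setting CYTOR went from -6.04 to -14.00 in either precipitate over Input. These falls are set by the pseudocount, which stayed at 0.1 for the 0 reads while the Input level was scaled up. They are no measure of depletion, since the scaling itself multiplied the ratios by 3.37 for IgG and 9.14 for Flag-FAK. The interval upper ends were 0.226 for LITATS1 in IgG, and for CYTOR 0.602 in IgG and 1.58 in Flag-FAK. On the log2 scale, PICSAR in Flag-FAK over IgG went from 0.66 to 2.21 with TPM without ribosomal DNA and 7SK, and was 1.96 with TPM over all transcripts. PICSAR in IgG over Input went from -4.38 to -3.11 with a pseudocount of 1, -2.02 with TPM and -2.89 with TPM without ribosomal DNA and 7SK, and in Flag-FAK over Input from -3.71 to -2.81, -0.06 and -0.68. LITATS1 in Flag-FAK over Input went from -4.15 to -2.20, -1.04 and -1.67 in the same order, and in IgG over Input from -5.45 to -2.40 with a pseudocount of 1, a value that the pseudocount sets because IgG had 0 reads. The transcripts more than 2-fold higher in Flag-FAK than in IgG numbered 29 in place of 19 with no minimum. Those above 2-fold numbered 84 in place of 43 for IgG over Input and 36 in place of 16 for Flag-FAK over Input with TPM. Summing CYTOR with MIR4435-2HG, an alternative chosen after seeing the data, gave -6.36 for IgG and -6.41 for Flag-FAK over Input. Flag-FAK over IgG has no value for LITATS1 or CYTOR, since neither exceeded 3 reads in a precipitate. No paired analysis was possible because a condition is 1 library. Depth limited CYTOR most, with 24 Input reads.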
